A study of Mus musculus with 12 samples.

Results

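Smooth muscle contractile genes encode the actin and myosin of the smooth muscle cell and the proteins that bind, anchor and switch on these filaments. Here they were Acta2, Myh11, Tagln, Cnn1, Des, Lmod1, Actg2, Synpo2, Mylk and Smtn, which were taken by symbol from a table of 55414 genes and matched 10 rows. All 10 were among the 15148 genes tested, and each was above 1 TPM (the deposited expression unit, scaled by gene length and by library total) in all 12 lungs. Acute lung injury (ALI) was induced with 50 µg of intranasal lipopolysaccharide (LPS), a component of the bacterial cell wall, in mice on a C57BL/6J background, and whole-lung RNA was sequenced on day 4. In the 6 IL-10 B-KO mice, floxed Il10 was deleted by Mb1-Cre, a recombinase made in B cells from the Cd79a locus, and the 6 IL-10 B-WT mice (called controls below where the lungs are not numbered) were the comparison group, whose exact alleles, like the age and sex of the animals, were not given in the sources used here. All 12 mice received LPS, so that the values compare genotypes during injury and not injured with uninjured lungs.

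In smooth muscle, calcium entering the cell or leaving its stores binds calmodulin and activates myosin light chain kinase, which phosphorylates the myosin regulatory light chain and lets myosin pull on actin. Myosin phosphatase reverses this step, and cGMP-dependent kinase relaxes the cell in part by acting on the phosphatase. In the lung these cells wrap the airways and vessels, and many of their genes are transcribed by serum response factor with myocardin, which act at a DNA element called the CArG box.

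The mean level of each of the 10 genes was lower in IL-10 B-KO than in IL-10 B-WT lungs, by between 1.52-fold (Tagln) and 2.39-fold (Synpo2). Of all genes tested, 36.8% had a log2 fold change below 0. Mylk, the kinase that starts contraction, fell from 83.2 ± 12.9 to 44.6 ± 10.6 TPM (SD, n = 6 each), and it was the only 1 of the 10 to pass an adjusted p of 0.05 in limma, a rule under which 0.495% of all genes were lower. The other 9 genes had the same direction but did not pass. At an unadjusted p of at most 0.05, 7 of the 10 were lower and 0 higher, where 5.71% of all genes were lower and 6.83% higher. The log2 fold changes, IL-10 B-KO minus IL-10 B-WT on the log2(TPM + 1) scale, had a median of -0.90, against 0.10 over all genes. With each library centered on its own median, which moved the median of all genes to -0.01, the median of the 10 was -1.01. In that fit, however, 5 of the 10 had an unadjusted p of at most 0.05 and 0 passed the adjusted threshold. The count of 7 also depended on single lungs. It was 9 without IL-10 B-WT replicate 1, but 3 without IL-10 B-WT replicate 2, 4, 5 or 6 or IL-10 B-KO replicate 1 or 6. The share of all genes was not computed for these fits.

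To show where these genes start, DNA from the RefSeq promoters of GRCm38.p6 was examined over the 250 bases before the start site that RefSeq gives. Entries were found for 7 of the 10 genes, namely Acta2, Mylk, Smtn, Cnn1, Des, Lmod1 and Synpo2. Myh11, Tagln and Actg2 had no entry. A CArG box is 10 bases long, with a pair of C at its start, a core of 6 bases that are A or T, and a pair of G at its end, and reads as the same element on both strands. A full match was present in 0 of the 7, and in 1.47% of 32851 promoters of the same length. With 1 base of the core allowed to be G or C, 1 of the 7 matched, against 8.59% of all promoters. This was Acta2, the gene of the 10 with the highest level, which held such a box 84 bases and again 34 bases before the start. Both boxes are shown in capitals with 10 bases on either side, on the minus strand at chr19:34255438-34255467 and chr19:34255388-34255417. Both lie inside an exon that GENCODE gives to a longer Acta2 transcript, while RefSeq starts the gene after them. They are followed by DNA before the RefSeq start of Mylk, the gene that passed the test (plus strand, chr16:34784700-34784920), and of Synpo2, the gene with the largest fold difference in mean TPM (minus strand, chr3:123236150-123236399), neither of which held a box. The RefSeq start of Mylk, base 34784950, is an internal one that lies inside the gene as GENCODE gives it, so that this stretch is not upstream of the longest transcript.
Acta2, first box: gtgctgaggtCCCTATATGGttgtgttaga
Acta2, second box: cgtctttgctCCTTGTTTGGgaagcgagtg
Mylk: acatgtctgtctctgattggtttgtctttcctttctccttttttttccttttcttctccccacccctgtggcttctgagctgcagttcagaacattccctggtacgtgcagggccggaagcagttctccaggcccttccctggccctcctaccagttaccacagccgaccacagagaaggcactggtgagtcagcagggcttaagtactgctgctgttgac
Synpo2: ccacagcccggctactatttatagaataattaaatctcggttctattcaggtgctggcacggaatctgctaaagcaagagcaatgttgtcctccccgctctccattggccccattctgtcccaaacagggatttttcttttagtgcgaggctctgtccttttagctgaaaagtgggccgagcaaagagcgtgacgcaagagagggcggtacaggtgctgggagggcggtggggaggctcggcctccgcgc
These letters describe the DNA only, and a window without a box says nothing about which factors act on the gene.

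Mylk (ENSMUSG00000022836, GRCm38 chr16:34745210-35002420, plus strand) encodes myosin light chain kinase. It was at 67.8, 97.2, 69.6, 94.1, 79.1 and 91.6 TPM in the control lungs (replicates 1 to 6) and had 40.1, 56.2, 49.9, 53.7, 39.2 and 28.4 TPM in the lungs of IL-10 B-KO mice. There was no overlap, since the highest IL-10 B-KO lung, replicate 2, lay below the lowest IL-10 B-WT lung, replicate 1. Mylk was the only 1 of the 10 genes without overlap, while 0.924% of all genes were lower without overlap in IL-10 B-KO lungs. The log2 fold change of Mylk was -0.91 (standard error 0.18, 95% interval -1.30 to -0.52, adjusted p = 0.0438), and the two-sided exact permutation test gave p = 0.00216, the smallest that 6 lungs against 6 allow. As its log2 fold change did not reach -1, 0 of the 10 genes met the adjusted p and this minimum together, as 0.469% of all genes did. The call was held by a narrow margin, since the adjusted p was 0.0557 to 0.133 when any lung other than IL-10 B-KO replicate 2 or IL-10 B-WT replicate 1 was left out, 0.0767 with the TPM rescaled without immunoglobulin genes and 0.0932 with median centering. The fall itself lay between -0.98 and -0.79 on the log2 scale in all 12 of these leave-one-out fits. The gene also gives rise to a longer kinase that is known from endothelial and epithelial cells, and a level per gene does not separate these forms.

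**Figure D1:**
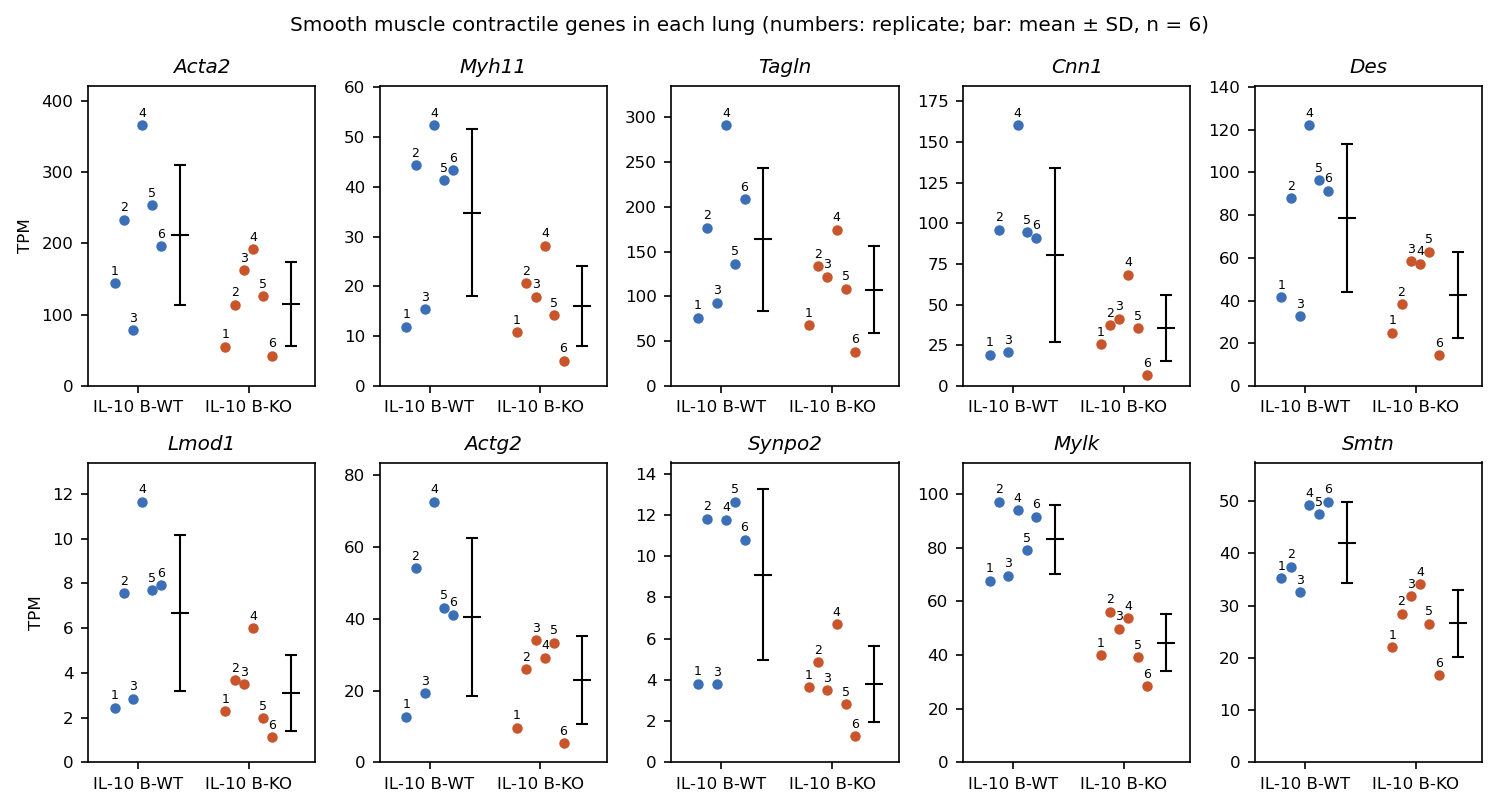
Level of each of the 10 smooth muscle contractile genes (y axis, TPM, linear and from 0) in each lung, with the replicate number at each point, blue for IL-10 B-WT and red for IL-10 B-KO, and a bar for the mean ± SD (n = 6). Mylk is the only gene whose groups do not overlap, and IL-10 B-KO replicate 6 is the lowest point in every panel.

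The thin filament of smooth muscle is built from a vascular and an enteric form of actin. Acta2 (ENSMUSG00000035783, chr19:34241090-34255590, minus strand), the vascular form and the usual marker of smooth muscle, ranged from 78.2 to 366 TPM in control lungs (median 215) and from 42.2 to 192 TPM in the IL-10 B-KO lungs (median 120.0). IL-10 B-KO replicates 2 to 5 lay within the range of the controls, while 4 of 6 control lungs lay above every IL-10 B-KO lung. The means were 211.8 ± 98.5 and 115.2 ± 58.5 TPM (SD), a log2 fold change of -0.91 (standard error 0.42, unadjusted p = 0.0474, adjusted p = 0.389). The exact permutation test gave p = 0.0866. Actg2 (ENSMUSG00000059430, chr6:83512905-83536265, minus strand), the enteric form, ranged from 12.75 to 72.65 TPM (median 42.1) in controls and from 5.33 to 34.0 TPM (median 27.6) in IL-10 B-KO lungs. Its groups overlapped in IL-10 B-WT replicates 1 and 3, and its log2 fold change of -0.83 had a 95% interval that included 0 (-1.90 to 0.24, adjusted p = 0.489). Without IL-10 B-KO replicate 6 it was -0.50.

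The other actins are nearly identical in sequence, so that the split of reads between them is uncertain. The cytoplasmic actins Actb and Actg1, which all cells make, had log2 fold changes of 0.12 and 0.27 (adjusted p = 0.839 and 0.565) at mean levels of at least 1257 TPM in both genotypes, and Acta1, the skeletal form, was at 0.95 TPM or less in every lung. Actc1, the cardiac form, was at 125.5 ± 94.9 TPM in controls and 39.1 ± 25.6 TPM in the IL-10 B-KO lungs (SD, n = 6), a log2 fold change of -1.54 (adjusted p = 0.375).

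Myh11 (ENSMUSG00000018830, chr16:14194535-14291372, minus strand) encodes the smooth muscle myosin heavy chain, the motor of the thick filament and the gene of the 10 most restricted to smooth muscle. It ranged from 11.9 to 52.4 TPM in control lungs (median 42.35) and from 5.10 to 28.2 TPM in the IL-10 B-KO lungs (median 16.1). IL-10 B-WT replicates 1 and 3, at 11.87 and 15.45 TPM, lay among the IL-10 B-KO lungs, and the other 4 lay above all of them. The mean was 34.8 ± 16.8 TPM in controls and 16.1 ± 8.03 TPM in the IL-10 B-KO lungs, a log2 fold change of -1.03 (standard error 0.43, unadjusted p = 0.0306, adjusted p = 0.357). Of the nonmuscle myosin heavy chains, Myh9 had a log2 fold change of 0.01 (adjusted p = 0.990) and Myh10 of -0.68 (adjusted p = 0.358).

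Of the proteins that bind the thin filament, transgelin (Tagln, ENSMUSG00000032085, chr9:45929619-45936058, minus strand) is an abundant actin-binding protein of differentiated smooth muscle. Its level was 76.2 to 291 TPM in control lungs (median 157) and 38.2 to 175 TPM in the IL-10 B-KO lungs (median 115). The log2 fold change was -0.61, with a 95% interval of -1.45 to 0.23 and an adjusted p of 0.506. Calponin 1 (Cnn1, ENSMUSG00000001349, chr9:22099216-22109630, plus strand), which binds actin and slows the myosin motor, ranged from 19.2 to 160.4 TPM in control lungs (median 92.85) and from 6.48 to 68.5 TPM in the IL-10 B-KO lungs (median 36.3). It had the widest spread between lungs of the 10, and the 95% interval of its log2 fold change of -1.04 ran from -2.32 to 0.25 (adjusted p = 0.474). In both genes IL-10 B-WT replicates 1 and 3, and in Tagln also replicate 5, lay within the range of the IL-10 B-KO lungs. Without IL-10 B-KO replicate 6, the log2 fold change was -0.35 for Tagln and -0.63 for Cnn1.

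Smoothelin (Smtn, ENSMUSG00000020439, chr11:3517523-3540612, minus strand), an actin-associated protein of contractile smooth muscle, was second to Mylk in p. It ranged from 32.6 to 49.9 TPM in control lungs (median 42.5) and from 16.7 to 34.1 TPM in the IL-10 B-KO lungs (median 27.5). A single IL-10 B-KO lung, replicate 4, lay above the lowest control, and 5 of 6 lay below all controls. The mean was 42.0 ± 7.74 TPM in controls and 26.6 ± 6.38 TPM in the IL-10 B-KO lungs, a log2 fold change of -0.65 (standard error 0.19, unadjusted p = 0.00392, adjusted p = 0.191, exact permutation p = 0.00433).

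Leiomodin 1 (Lmod1, ENSMUSG00000048096, chr1:135324807-135368065, plus strand) starts actin filaments and is the gene of the 10 with the lowest level. It was at 2.44 to 11.65 TPM in control lungs (median 7.62) and at 1.12 to 6 TPM in the IL-10 B-KO lungs (median 2.905), a log2 fold change of -0.86 (unadjusted p = 0.0311, adjusted p = 0.358). Synaptopodin 2 (Synpo2, ENSMUSG00000050315, chr3:123076519-123236149, minus strand), which bundles actin at the anchoring points of the filaments, ranged from 3.79 to 12.6 TPM in control lungs (median 11.3) and from 1.28 to 6.69 TPM in the IL-10 B-KO lungs (median 3.58). Its mean was 9.10 ± 4.15 TPM against 3.80 ± 1.84 TPM, a log2 fold change of -1.03 (standard error 0.35, unadjusted p = 0.0110, adjusted p = 0.298, exact permutation p = 0.0238). In both genes IL-10 B-WT replicates 1 and 3 were again the control lungs that overlapped with IL-10 B-KO. Fold changes on the log2(TPM + 1) scale understate differences at such low levels.

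Desmin (Des, ENSMUSG00000026208, chr1:75360329-75368579, plus strand) forms the intermediate filaments that tie the contractile apparatus together, and is also made in heart and skeletal muscle. It ranged from 32.8 to 122 TPM in control lungs (median 89.6) and from 14.4 to 62.8 TPM in the IL-10 B-KO lungs (median 47.8), with IL-10 B-WT replicates 1 and 3 inside the range of the IL-10 B-KO lungs. The log2 fold change was -0.89 (standard error 0.40, unadjusted p = 0.0449, adjusted p = 0.381, exact permutation p = 0.0844).

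The genes differed less in the size of their fold changes, which lay between -1.04 and -0.61, than in their spread within a genotype. The SD between lungs of a genotype on the log2(TPM + 1) scale was 0.30 for Mylk and 0.32 for Smtn, below the median of 0.393 over all genes, and 0.67 to 1.18 for the other 8, with Cnn1 the highest. In rank among all tested genes, Mylk and Smtn were at percentiles 25.9 and 30.3 of the spread and the other 8 at percentiles 83.6 to 96.4. Hence Acta2, Mylk and Des had log2 fold changes of -0.91, -0.91 and -0.89, while their adjusted p-values were 0.389, 0.0438 and 0.381. By the exact permutation test, 3 of the 10 genes (Mylk, Smtn and Synpo2) had p of at most 0.05. No share of all genes is available for this test. Lmod1 (exact permutation p = 0.0563), Myh11 (0.0584), Des (0.0844) and Acta2 (0.0866) were above 0.05, although their unadjusted limma p was below it.

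**Figure D2:**
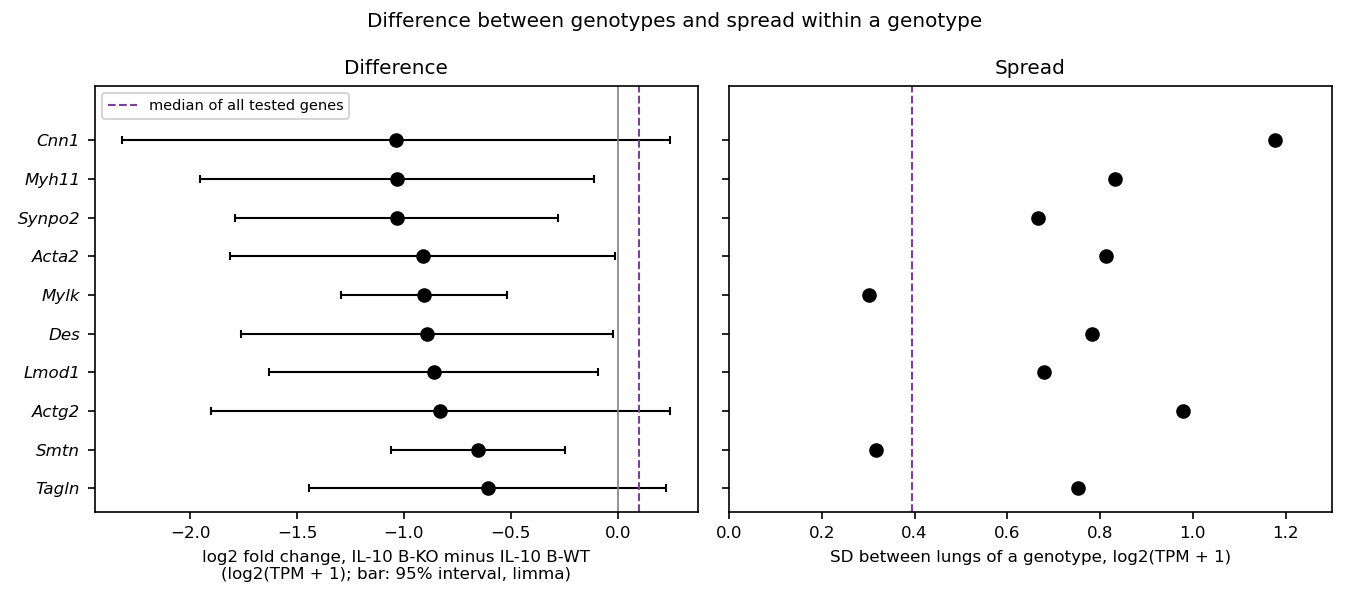
Left, log2 fold change of each gene, IL-10 B-KO minus IL-10 B-WT on log2(TPM + 1), with its 95% interval from limma. Right, the SD between lungs of a genotype on the same scale. The dashed lines mark the median of all tested genes (0.10 and 0.393), and Mylk and Smtn have the shortest intervals and lie to the left of the median spread.

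The same lungs were high or low for most of the 10 genes. IL-10 B-KO replicate 6 was the lowest of all 12 lungs for 10 of 10 genes, and IL-10 B-WT replicate 4 was the highest of all 12 for 7. Within IL-10 B-KO, replicate 4 was the highest lung for 7 genes. Among the controls, the lowest lung was replicate 1 for 6 genes and replicate 3 for 4, and these lungs lay below the highest IL-10 B-KO lung for 8 and 9 genes, whereas replicates 2, 4 and 6 did so for 0 and replicate 5 for 1 (Tagln).

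Summed over the 10 genes, the level was 415, 846, 368, 1231, 812 and 832 TPM in control replicates 1 to 6 (mean 751 ± 319) and 263, 463, 524, 650, 451 and 159 TPM in the same order of IL-10 B-KO lungs (mean 418 ± 179). The 4 higher controls lay above every IL-10 B-KO lung and the 2 lower controls lay among them. As a share of the library total, the 10 genes took 0.0371% to 0.124% in controls and 0.0160% to 0.0654% in lungs of IL-10 B-KO mice. In whole lung, fewer cells of a type and less RNA per cell cannot be told apart.

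**Figure D3:**
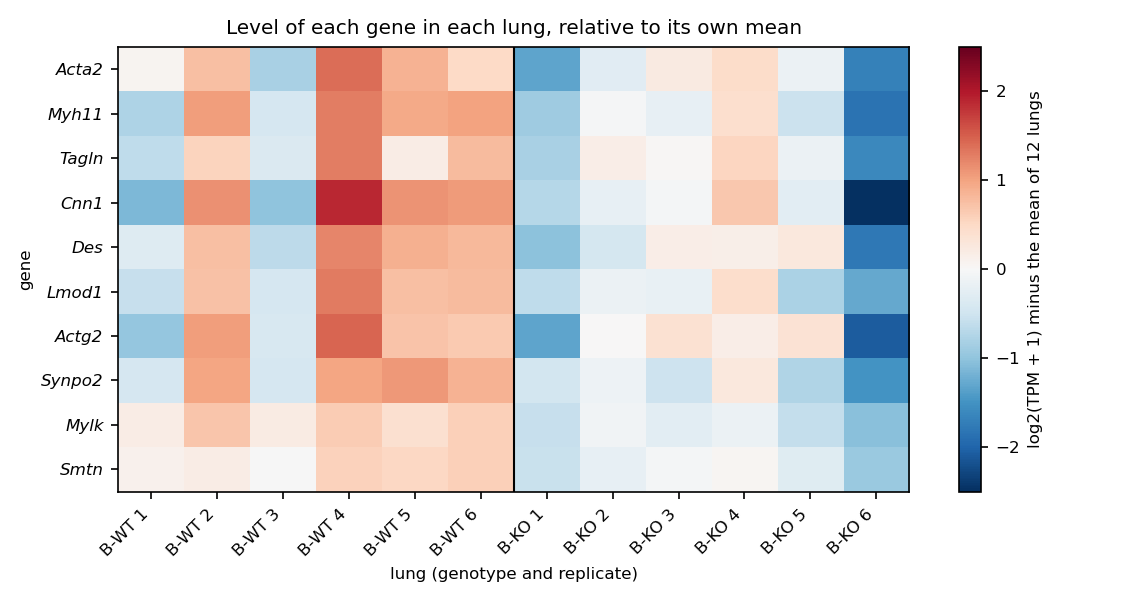
Level of each gene (rows) in each of the 12 lungs (columns, genotype and replicate) as log2(TPM + 1) minus the mean of that gene over the 12 lungs, red above and blue below the mean. A lung tends to have 1 color for most genes, with IL-10 B-WT replicate 4 red and IL-10 B-KO replicate 6 blue for all 10, and IL-10 B-WT replicates 1 and 3 blue or near white for most.

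With each gene centered on its genotype mean, Pearson's r between 2 of the genes over the 12 lungs lay between 0.76 and 0.98 in the 45 pairs (median 0.89), and Spearman's rank correlation between 0.50 and 0.96 (median 0.76). The lowest r was between Des and Mylk. These values describe the lungs measured here, in which all genes of a lung share 1 library and 1 total. Myh11 and Cnn1 followed the mean of the other 9 most closely (r = 0.98 each), and Mylk least closely (r = 0.88).

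The 10 genes kept nearly the same order of level in both genotypes. By mean TPM in IL-10 B-WT lungs, the order from the highest was Acta2, Tagln, Mylk, Cnn1, Des, Smtn, Actg2, Myh11, Synpo2 and Lmod1, and in IL-10 B-KO lungs only Des and Cnn1 changed places. Between neighbors, Tagln was above Mylk and Myh11 above Synpo2 in 12 of 12 lungs, and Des above Smtn and Synpo2 above Lmod1 in 11. Acta2 was above Tagln in 8 lungs, Smtn above Actg2 in 8 and Cnn1 above Des in 4, so that these neighbors did not separate beyond the spread between lungs.

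Ratios between genes of the same lung were compared between the genotypes for 3 pairs, as differences of log2(TPM + 1). The added 1 leaves some dependence on scale where a level is low. The log2 ratio of Acta2 to Myh11 was 2.61 ± 0.49 in controls and 2.73 ± 0.34 in the IL-10 B-KO lungs (SD, n = 6, difference 0.12, exact permutation p = 0.628). That of Actg2 to Acta2 was -2.42 ± 0.52 and -2.34 ± 0.34 (difference 0.08, exact permutation p = 0.779), and that of Mylk to Myh11 was 1.41 ± 0.67 and 1.53 ± 0.46 (difference 0.13, exact permutation p = 0.701). With a pseudocount of 0.1 the differences were 0.17, 0.048 and 0.16. All 3 differences were smaller than the SD between lungs in either genotype, so that a difference between the genotypes in the balance of these genes was not detectable here.

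Other genes of the contractile apparatus were read from lists. For this and every later list, 36.8% of all genes were below 0. At an unadjusted p of at most 0.05, 5.71% of all genes were lower and 6.83% higher. Past the adjusted threshold, 0.495% were lower. Filament partners are proteins of the thin and thick filaments, dense bodies and cytoskeleton beside the 10 genes. Of 20 tested, 12 had a log2 fold change below 0 and 8 above (median -0.17), with 5 at an unadjusted p of at most 0.05, all lower, and 0 past the adjusted threshold. Those with the smallest p were vinculin (Vcl), which links actin to adhesions, at 70.1 ± 10.6 and 44.3 ± 15.4 TPM (log2 fold change -0.71, adjusted p = 0.244), synemin (Synm), an intermediate filament protein that partners desmin (-0.94, adjusted p = 0.263), and Mustn1 (-0.64, adjusted p = 0.356).

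Contraction regulators comprise the myosin phosphatase, the kinases that act on it and calcium handling genes. Of 17, 16 were tested, of which 12 were below 0 and 4 above (median -0.18), with 5 lower at an unadjusted p of at most 0.05 and 0 past the adjusted threshold. Cacna1c, the pore of the L-type calcium channel that triggers contraction, was at 8.71 ± 1.18 TPM in controls and 5.17 ± 0.783 TPM in the IL-10 B-KO lungs, without overlap (log2 fold change -0.66, adjusted p = 0.0719). Its auxiliary subunit Cacnb2 had a log2 fold change of -0.63 (adjusted p = 0.234), and Prkg1, the cGMP-dependent kinase that relaxes smooth muscle, of -1.0 (adjusted p = 0.176). Kcnma1, a potassium channel of smooth muscle, was at 1.65 TPM or less in every lung and was not tested.

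Of the receptors for constrictor and dilator agonists, 12 of 18 were tested, of which 11 were below 0 and 1 above (median -0.50), with 6 lower at an unadjusted p of at most 0.05 and 0 past the adjusted threshold. Agtr1a, the angiotensin II receptor, was at 14.5 ± 7.18 TPM in controls and 3.53 ± 2.16 TPM in the IL-10 B-KO lungs (log2 fold change -1.77, adjusted p = 0.0810). Ednra, the endothelin receptor of smooth muscle, was at 20.9 ± 2.41 and 11.7 ± 5.85 TPM (-0.91, adjusted p = 0.190), and Adra1d, an alpha-1 adrenergic receptor, at 1.85 ± 0.732 and 0.503 ± 0.375 TPM (-0.91, adjusted p = 0.117).

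A further list held 10 transcription factors. It mixed factors that act at CArG boxes, partners or antagonists of these, and the mesenchymal factors Tbx2 and Foxf1. Of these, 9 were tested, with 6 below 0 and 3 above (median -0.26). At an unadjusted p of at most 0.05, 3 were lower, and 0 passed the adjusted threshold. Myocardin (Myocd) was at 1.7 TPM or less in every lung and was not tested. The 3 were Tbx2 (127.7 ± 33.0 and 67.2 ± 20.5 TPM, log2 fold change -0.94, adjusted p = 0.124), Klf4, which is known to repress contractile genes (-0.69, adjusted p = 0.164), and Foxf1, a mesenchymal and endothelial factor of the lung (-0.98, adjusted p = 0.206). Tbx2 and Foxf1 are made in lung mesenchyme more widely than in smooth muscle. Serum response factor (Srf) had a log2 fold change of -0.26 (adjusted p = 0.604), Mrtfa of 0.17 (adjusted p = 0.762) and Mrtfb of -0.09 (adjusted p = 0.817). None of them reached an unadjusted p of at most 0.05.

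The deposited table pairs 141 genes with the KEGG pathway for vascular smooth muscle contraction, among them Acta2, Actg2, Myh11 and Mylk. Of the other 137, 95 were tested, with 55 below 0 and 40 above (median -0.09). At an unadjusted p of at most 0.05, 17 were lower and 3 higher, and 2 were lower past the adjusted threshold. These were both subunits of the nitric oxide receptor guanylate cyclase, which makes the cGMP that relaxes smooth muscle. Gucy1a1 ranged from 35.7 to 91.2 TPM in controls and from 6.61 to 29.2 TPM in the IL-10 B-KO lungs (log2 fold change -2.07, adjusted p = 0.0222), and Gucy1b1 from 33.0 to 96.5 and from 9.49 to 30.8 TPM (-1.65, adjusted p = 0.0378), each without overlap. Next in p came the adenylate cyclase Adcy8 (-1.92, adjusted p = 0.0510), then Cacna1c and Agtr1a, which are described with the lists above.

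**Figure D4:**
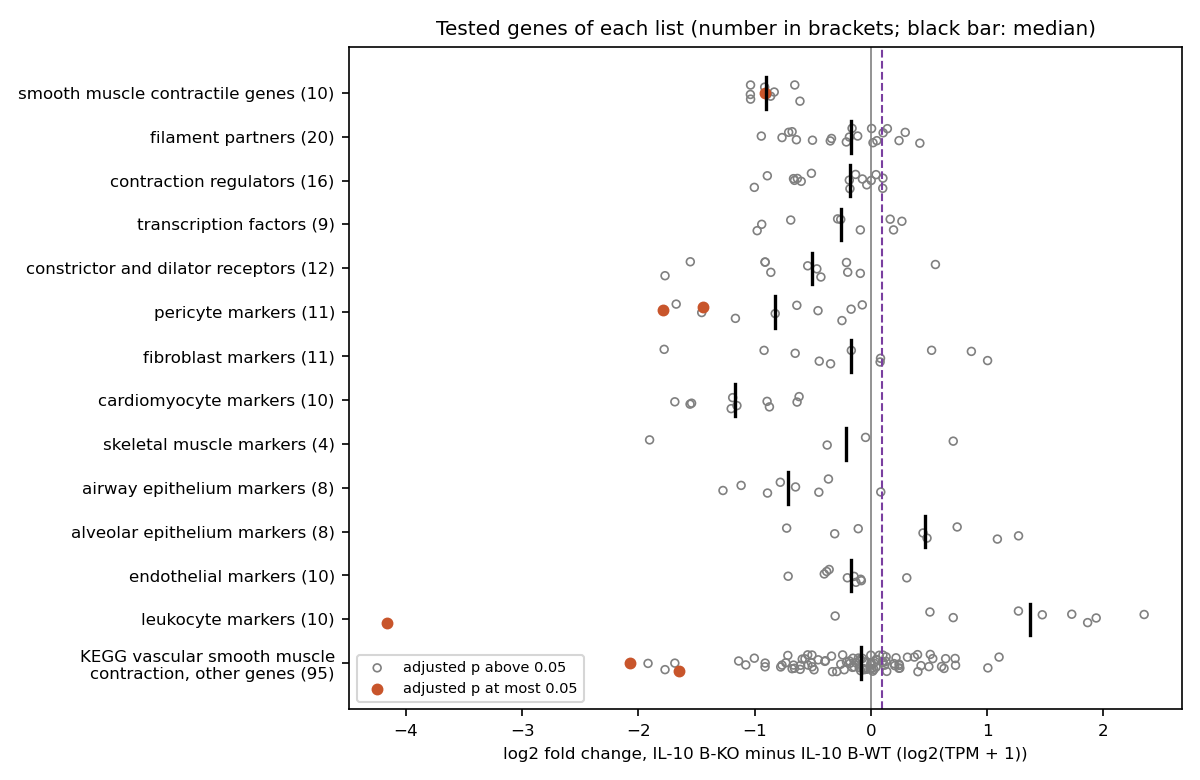
Log2 fold change (x axis, IL-10 B-KO minus IL-10 B-WT on log2(TPM + 1)) of each tested gene of each list, with the number of tested genes in brackets, filled points for an adjusted p of at most 0.05, a black bar for the median of a list and a dashed line for the median of all tested genes (0.10). The 10 contractile genes lie together between -1.04 and -0.61, while the filament partners spread over both sides of 0. All 11 pericyte markers, all 10 cardiomyocyte markers and 11 of 12 receptors also lie below 0.

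Markers of other cells that a whole lung holds moved with genotype or differed between lungs, and their part in the result was not tested. Markers of pericytes, the mural cells of small vessels, were below 0 for 11 of 11 genes (median -0.82), with 7 lower at an unadjusted p of at most 0.05 and 2 past the adjusted threshold, Notch3 (-1.78, adjusted p = 0.0236) and Pdgfrb (-1.44, adjusted p = 0.0456), followed by Ndufa4l2 (-1.67, adjusted p = 0.0719). Of all genes, 36.8% were below 0. The fall was not uniform over the list, as Rgs5 (-0.25, adjusted p = 0.802), Kcnj8 (-0.17, adjusted p = 0.858) and Mcam (-0.07, adjusted p = 0.896) changed little. Notch3 and Pdgfrb are also made in vascular smooth muscle. The summed level of the 11 pericyte markers was 410 to 878 TPM in controls and 214 to 445 TPM in the IL-10 B-KO lungs, and none was at 0 in any lung. Fibroblast markers were below 0 for 6 and above for 5 of 11 genes (median -0.17, sums of 736 to 2118 and 477 to 1965 TPM), with 3 lower at an unadjusted p of at most 0.05, namely Tcf21 (-0.92, adjusted p = 0.177), Inmt (-1.78, adjusted p = 0.325) and Wnt2 (-0.65, adjusted p = 0.364).

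Lung RNA also held transcripts of heart muscle, which lines the pulmonary veins of the mouse and shares Des with smooth muscle. Cardiomyocyte markers were below 0 for 10 of 10 genes (median -1.17), with 2 lower at an unadjusted p of at most 0.05 and 0 past the adjusted threshold. The smallest p-values were those of Actc1, given above, Ryr2 (-0.62, adjusted p = 0.381) and Myl4 (-1.15, adjusted p = 0.502). Their sum ranged from 81.0 TPM in IL-10 B-WT replicate 3 to 1925 TPM in IL-10 B-WT replicate 4, and from 33.6 TPM in IL-10 B-KO replicate 6 to 522 TPM in IL-10 B-KO replicate 1. Sln was the only one of them at 0 in any lung. Thus the lung highest and the lung lowest for most of the 10 contractile genes were also the highest and lowest for these markers, while IL-10 B-KO replicate 1 was low for the former and the highest of its genotype for the latter. IL-10 B-WT replicates 1 and 3, the lowest controls for the contractile genes, were also the lowest controls for these markers. Their sums were 141 and 81.0 TPM, against 292 to 1925 TPM in the other controls.

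Of the skeletal muscle markers, 4 of 10 were tested (median -0.21, sums of 14.5 to 73.5 and 17.0 to 44.9 TPM), with 0 past the adjusted threshold, the smallest p-values being those of Ckm (-1.90, adjusted p = 0.333), Tnni2 (0.71, adjusted p = 0.460) and Tnnt3 (-0.37, adjusted p = 0.711). The skeletal myosins Myh1, Myh2 and Myh4 were at 0.15 TPM or less in every lung. Airway epithelium markers were below 0 for 7 of 8 genes (median -0.71), with 0 at an unadjusted p of at most 0.05 and sums that overlapped widely (23623 to 100589 and 8574 to 105982 TPM). The leading genes were the club cell gene Scgb1a1 (-1.12, adjusted p = 0.434), Tppp3 (-0.78, adjusted p = 0.442) and Cyp2f2 (-1.27, adjusted p = 0.465). Alveolar epithelium markers were above 0 for 5 of 8 genes (median 0.47), with 3 higher at an unadjusted p of at most 0.05, namely Sftpa1 (1.09, adjusted p = 0.342), Lamp3 (1.27, adjusted p = 0.353) and Sftpb (0.74, adjusted p = 0.378). Their sums were at least 3959 TPM in every library, so that genes of the labelled tissue, lung, were present throughout. That lowest sum was of IL-10 B-WT replicate 5 alone. The other controls had 10335 to 19737 TPM and the IL-10 B-KO lungs 12640 to 23087 TPM.

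Endothelial markers were below 0 for 9 of 10 genes (median -0.17, sums of 2532 to 5203 and 2623 to 4510 TPM), with Kdr (-0.71, adjusted p = 0.350), Cdh5 (-0.40, adjusted p = 0.443) and Tek (-0.36, adjusted p = 0.498) first by p and 1 lower at an unadjusted p of at most 0.05. Leukocyte markers were above 0 for 8 of 10 genes (median 1.37), with 6 higher at an unadjusted p of at most 0.05 but 0 higher past the adjusted threshold, led by S100a9 (1.87, adjusted p = 0.214) and S100a8 (1.94, adjusted p = 0.266) of neutrophils and monocytes. Their sum was 318 to 2883 TPM in controls and 1103 to 7165 TPM in the IL-10 B-KO lungs. The B cell gene Cd79a, from whose locus Mb1-Cre is made, fell by 4.16 on the log2 scale (adjusted p = 0.0222). It ranged from 15.3 to 258.6 TPM in controls and from 0 to 5.73 TPM in the IL-10 B-KO lungs. Whole-lung values do not separate fewer B cells from less Cd79a RNA per cell. The groups thus differed in Cd79a, and at an unadjusted p in 6 other leukocyte markers, as well as in the Il10 allele. Which of these differences the levels of the contractile genes went with cannot be told apart here. Il10 itself was at 0.355 ± 0.348 TPM in controls and 0.282 ± 0.220 TPM in the IL-10 B-KO group (n = 6 each, SD, exact permutation p = 0.745) and so did not mark the genotype in whole lung.

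Among the other 15138 tested genes, the 9 whose values followed the mean of the contractile genes most closely over the 12 lungs, with genotype means removed, were Irag1, Sdc2, Lmcd1, Cdh2, Twist2, Map3k7cl, Abat, Cdkn1c and Mustn1, with Pearson's r from 0.94 to 0.91. These r values describe the same 12 libraries, whose genes share a total, and carry no test. Removing the genotype means left the difference between the genotypes out of this ranking. All 9 genes had log2 fold changes below 0, where 36.8% of all genes did. Sdc2, a heparan sulfate proteoglycan of the cell surface, fell from 22.8 ± 5.52 to 9.69 ± 2.86 TPM (log2 fold change -1.17, adjusted p = 0.0392). Cdh2, which encodes N-cadherin, was at 3.26 ± 1.35 and 0.920 ± 0.365 TPM (-1.11, adjusted p = 0.0558), and Lmcd1 at 24.1 ± 9.10 and 11.0 ± 4.47 TPM (-1.08, adjusted p = 0.244). The remaining 6 had log2 fold changes from -0.76 (Twist2) to -0.34 (Abat), none past the adjusted threshold.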

How the data were processed

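Whole-lung RNA from 12 mice was analyzed as 1 table of TPM, which the authors deposited with 1 column per lung, rounded to 2 decimals. Per the submitters' processing notes, fastp, HISAT and RSEM were used with GRCm38.p5. The versions and the annotation release are not given in the sources used here, nor is the tool behind the study's DEGs, for which 5 are listed. TPM keep no depth, so that the reads behind a value are unknown, no count model was fitted, and precision rests on the spread between lungs. Groups and replicate numbers came from the labels, and the number of unused sample columns was 0. The limma p-values set the difference between the genotypes against the spread between these lungs.

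The 15148 genes that reached 1 TPM in 6 or more libraries were fitted in R 4.3.3 with limma 3.58.1 (lmFit and trended eBayes) on log2(TPM + 1) with 1 term, genotype, and Benjamini-Hochberg adjustment over all of them. This step was first tested on simulated data. Single values and ratios were compared by two-sided exact permutation tests. Intervals are 95% intervals from limma. Coordinates are from GENCODE release M21 on GRCm38 and promoters from RefSeq (GRCm38.p6). Other steps used SciPy 1.17.1, NumPy 2.4.6, pandas 2.3.3 and matplotlib 3.10.9 in Python 3.11.15.

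The 10 genes, and the 12 other gene lists of this report, were chosen with earlier results of these data known. Named were all 10 genes, the 3 tested genes of each list and 5 of the KEGG pathway with the smallest p, the 10 genes closest in pattern (of which 1 is not reported here), related actins and myosins, and Il10. Kcnma1, Myocd, Srf, Mrtfa, Mrtfb, Rgs5, Kcnj8, Mcam and the skeletal myosins were named after their values were seen. The results were recomputed with each library left out in turn, with a replicate-number block, with array quality weights, with quantile normalization or median centering, after rescaling without immunoglobulin genes and Jchain, with a filter at a mean TPM of 5 or with none, with a pseudocount of 0.1, and with a minimum absolute log2 fold change of 1.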

Additional observations from a re-analysis of the deposited data

How the results depend on the processing

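The 10 genes kept a log2 fold change below 0 in all 199 values from the 20 alternatives (Lmod1 was below the filter at a mean TPM of at least 5). The median of the 10 lay between -1.07 and -0.65 in the fits that left out 1 library. The number of the 10 genes past the adjusted p of 0.05 was 1 and fell to 0 with no filter, with rescaling without immunoglobulin genes, with quantile normalization, with median centering, with the replicate number as a block and with a minimum absolute log2 fold change of 1. It ranged from 0 to 1 when each library was left out. The gene that passed was Mylk. Its adjusted p was 0.104 without a filter, where 31629 genes were adjusted for, and 0.0833 with quantile normalization, and the cause of the latter was not tested. In the fits that left out 1 library it ranged from 0.0230 to 0.133. With the replicate block, the adjusted p of Mylk was 0.144 and 0 of the 10 genes passed. Same-numbered lungs did not deviate together (correlations from -0.29 to 0.05), and 0 of 12 libraries correlated best with their own number. The labels describe no pairing, and this check cannot exclude one.

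At an unadjusted p of at most 0.05, 4 of the 10 genes were lower with array quality weights, against 7. With median centering, and with no filter, 5 were lower. The share of all genes at this unadjusted p was not computed for these fits. Over all genes, 75 were lower past the adjusted p, against 540 with array quality weights, 6 without a filter, 24 with rescaling, 40 with quantile normalization, 37 with median centering, 43 with the block, and 15 to 324 when 1 library was left out. Leaving out 1 library, the difference in log2 ratio ranged from 0.030 (without IL-10 B-WT replicate 6) to 0.30 (without IL-10 B-WT replicate 1) for Acta2 to Myh11, from -0.11 to 0.17 for Actg2 to Acta2, with -0.0086 without IL-10 B-KO replicate 5, and from -0.020 to 0.33 for Mylk to Myh11, with the lowest value without IL-10 B-KO replicate 6. As TPM hold no depth, no detection limit can be given for the low genes.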
